A study of Homo sapiens with 4 samples.

Results

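The 9 genes described here are targets of p53 that act in cell death or in its restraint: BAX, BBC3, PMAIP1, FAS, TNFRSF10B, AEN, TP53I3, TRIAP1 and PHLDA3. They were taken by symbol from a list, and each matched 1 of the 58243 genes in the tables. All 9 passed the filter on low counts that left 14759 genes to be tested. The cells were SH-SY5Y, an established human neuroblastoma line. The labels mention retinoic acid differentiation, and whether the sequenced cells were differentiated is not clear from them. The control group comprised 2 libraries (a and b) of cells not given sodium nitroprusside. The SNP group comprised 2 libraries (a and b) of cells given sodium nitroprusside (SNP), a donor of nitric oxide, for 8 h. The labels call this group's RNA oxidized. They give no dose for the sequenced cells and do not say whether a and b are separate cultures, so the p-values measure the spread between these libraries, which may be technical.

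The transcription factor p53 is stabilised by DNA damage and other stresses, among them nitric oxide, and binds response elements in its target genes. Some targets open the mitochondrial route to apoptosis, in which BH3-only proteins free BAX to permeabilise the outer membrane. Others are death receptors that pass the signals of extracellular ligands to caspases, and further targets temper survival signalling or restrain death. MDM2, itself a target, marks p53 for degradation and closes a feedback loop.

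A p53 response element is a pair of 10-base repeats, each with the core CNNG at its centre, where each N is A or T. The 250 bases before the transcript starts in the RefSeq promoter table (GRCh38.p14) were searched for the p53 consensus on both strands, which are equivalent because the repeat is its own reverse complement. A match needed 2 repeats with intact cores, at most 13 bases apart and with at most 2 mismatches in 20 bases. Windows were found for 7 members, and TNFRSF10B and PHLDA3 were not matched. The 7 genes had 9 windows, 3 of them for FAS. A match was present in 2 of the 7 genes, FAS (in 1 of its 3 windows) and AEN. Of all genes with a window 427 of 27305 (1.56%) had a match, and of all windows 443 of 35116 (1.26%). The stretches are shown because both genes rose, with the repeats in capitals and 5 bases on either side.
FAS, chr10:88991304-88991333, plus strand: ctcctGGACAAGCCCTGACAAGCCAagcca
AEN, chr15:88621301-88621330, plus strand: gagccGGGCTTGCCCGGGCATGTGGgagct

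In both stretches the first repeat had 0 mismatches, the second had 2, and no base lay between them. The AEN match lies 34 to 15 bases before the RefSeq start and inside the first exon that GENCODE 29 gives to AEN. The FAS match lies 122 to 103 bases before one of the internal starts of FAS, in a stretch that GENCODE 29 assigns to exons of both FAS and ACTA2. BAX, BBC3, PMAIP1, TP53I3 and TRIAP1 had no match in their windows, which says only that these letters are not there. No match was found either in the windows of 17 other p53 targets.

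After SNP, 6 of the 9 members rose and 0 fell: FAS, PHLDA3, BBC3, TNFRSF10B, AEN and TRIAP1. Across all genes tested, 13.6% were called higher and 12.6% lower at an adjusted p under 0.05 by the quasi-likelihood test of edgeR, with Benjamini-Hochberg correction over the 14759 genes (called edgeR adjusted p below). The share called higher rests on 2002 genes, which became 1244 without control a and 1285 without control b. A fit without 1 library leaves its group with a single library, which is assumed to vary like the libraries of the other group. For all 9 members both SNP libraries lay above both control libraries, which was the case for 31.7% of all genes tested, while 32.3% lay below in both. Of the 6, 5 rose by at least 1 on the log2 scale, as did 2.71% of all genes tested. The median log2 fold change was 1.04 over the 9 members and -0.0042 over all genes tested. BAX, PMAIP1 and TP53I3 did not pass. Levels below are in CPM, counts per 1000000 after TMM scaling, with n = 2 libraries per group for every mean ± SD. The libraries held 5613144 to 8056550 counts, so that 3 counts, the floor used here, correspond to 0.372 to 0.534 CPM.

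**Figure D1:**
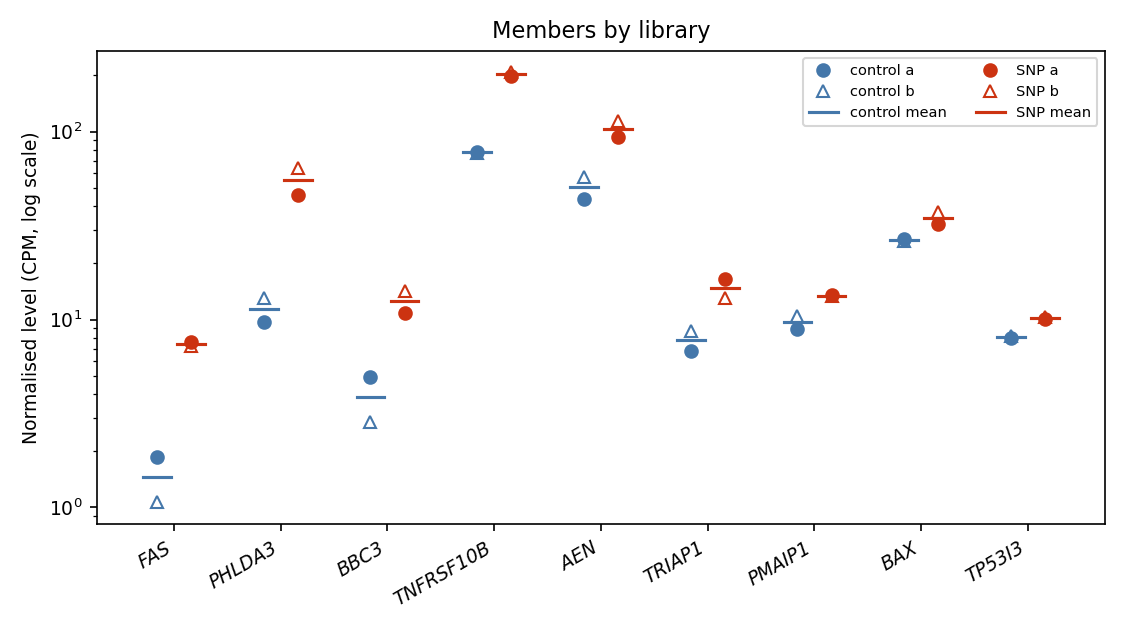
Normalised level (CPM, log axis) of each member in control (blue) and SNP (red) libraries; circles are libraries a, triangles libraries b and bars the group means. For all 9 genes both red symbols lie above both blue ones, with the widest gap for FAS (lowest SNP value 3.92 times the highest control value) and narrow gaps for BAX, TP53I3 and PMAIP1 (1.21, 1.23 and 1.27 times).

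The death receptors were among the members that rose. FAS, the receptor of FAS ligand, had 12 counts in control a and 6 in control b against 60 in SNP a and 56 in SNP b. Its level was 1.85 and 1.07 CPM in the control libraries and 7.55 and 7.26 CPM in the SNP libraries. The control values were low and 1.74-fold apart, whereas the SNP values were within 1.04-fold of each other. The control mean was 1.46 ± 0.555 CPM and the SNP mean 7.41 ± 0.207 CPM, a log2 fold change of 2.31 (SE 0.396, edgeR adjusted p 2.13e-04) and the highest among the members.

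TNFRSF10B encodes DR5, a receptor of the ligand TRAIL that recruits caspase-activating adaptors. It was counted 506 and 433 times without SNP and 1564 and 1596 times with it, the most of the 9. Its level was 78.0 and 76.9 CPM without SNP and 197 and 207 CPM with it. Replicates differed by 1.02-fold and 1.05-fold, while the groups differed 2.61-fold. With 77.5 ± 0.820 against 202 ± 7.11 CPM, the log2 fold change was 1.38 (SE 0.105, edgeR adjusted p 1.44e-08), the smallest adjusted p of the members.

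The BCL2 family members act at the mitochondrial membrane, and they differed in response. BBC3 encodes PUMA, a BH3-only protein that binds the survival members of the family. It had 32 and 16 counts without SNP and 86 and 109 with it, or 4.93 and 2.84 CPM against 10.8 and 14.1 CPM. The lower SNP value was 2.19 times the higher control value, although the control libraries were 1.74-fold apart. The log2 fold change was 1.66 (SE 0.299, edgeR adjusted p 3.42e-04).

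PMAIP1 encodes NOXA, a BH3-only protein best known for binding MCL1. Its counts were 58 and 59 without SNP and 107 and 103 with it, at 8.94 and 10.5 CPM against 13.5 and 13.4 CPM. The groups did not overlap, but the log2 fold change of 0.47 had a 95% interval of 0.0020 to 0.94 and an edgeR adjusted p of 0.131. BAX encodes the effector that forms pores in the outer membrane. It was counted 173 and 147 times without SNP and 257 and 288 times with it, at 26.7 and 26.1 CPM against 32.4 and 37.3 CPM. Its log2 fold change was 0.40, with a 95% interval of 0.078 to 0.72 and an edgeR adjusted p of 0.0613, just outside the threshold. BAX passed with offsets for base composition, described below, at 0.44 and an edgeR adjusted p of 0.0331. It did not pass with DESeq2 (0.40, DESeq2 Wald adjusted p 0.187) or without the filter (0.40, edgeR adjusted p 0.0979). In the fits without 1 library its log2 fold change was 0.41 without control a and 0.38 without control b. It was 0.50 without SNP a and 0.30 without SNP b.

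The intervals of the BH3-only genes did not overlap: that of BBC3 ran from 1.04 to 2.28 on the log2 scale, above the upper end for PMAIP1. The interval of BBC3 also lay above that of BAX. These are intervals of single genes, and the differences between genes were not tested.

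AEN and TP53I3 encode enzymes tied to cell death. AEN is a nuclease that takes part in the breakdown of DNA. It had 285 and 322 counts without SNP and 744 and 877 with it, or 44.0 and 57.2 CPM against 93.7 and 114 CPM. In both groups library b was the higher one, and the lower SNP value was 1.64 times the higher control value. The level went from 50.6 ± 9.34 to 104 ± 14.2 CPM, and the log2 fold change was 1.04 (SE 0.136, edgeR adjusted p 1.25e-05).

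TP53I3, also called PIG3, encodes a quinone oxidoreductase linked to the production of reactive oxygen species. It was counted 52 and 46 times without SNP and 80 and 80 times with it, at 8.02 and 8.17 CPM against 10.1 and 10.4 CPM. Replicates were within 1.03-fold of each other and the groups did not overlap. The log2 fold change of 0.34 was the lowest of the members, with a 95% interval of -0.17 to 0.85 and an edgeR adjusted p of 0.339. The interval includes 0, so a change was not detectable at this depth.

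The remaining members bear on survival. PHLDA3 carries a pleckstrin homology domain and restrains the survival kinase AKT by competing for membrane lipids. It had 63 and 73 counts without SNP and 364 and 495 with it, or 9.72 and 12.96 CPM against 45.8 and 64.2 CPM. Each group spread by 1.33-fold to 1.40-fold, and the lower SNP value was 3.54 times the higher control value. The level went from 11.3 ± 2.29 to 55.0 ± 12.98 CPM, and the log2 fold change was 2.28 (SE 0.193, edgeR adjusted p 4.82e-08), nearly that of FAS.

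TRIAP1 encodes a small mitochondrial protein that carries phospholipids with PRELID partners and restrains apoptosis. Its counts were 44 and 49 without SNP and 130 and 100 with it, at 6.79 and 8.70 CPM against 16.4 and 12.97 CPM. SNP a was the higher SNP library here, unlike for PHLDA3, BBC3 and AEN. The log2 fold change was 0.93 (SE 0.241, edgeR adjusted p 0.0069). The call was lost in 2 of the 4 fits without 1 library: the edgeR adjusted p was 0.0773 without control a and 0.0565 without SNP a, with log2 fold changes of 0.75 in both. The other 5 genes that rose passed in all 4 of these fits, which share the assumption on the spread given above.

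**Figure D2:**
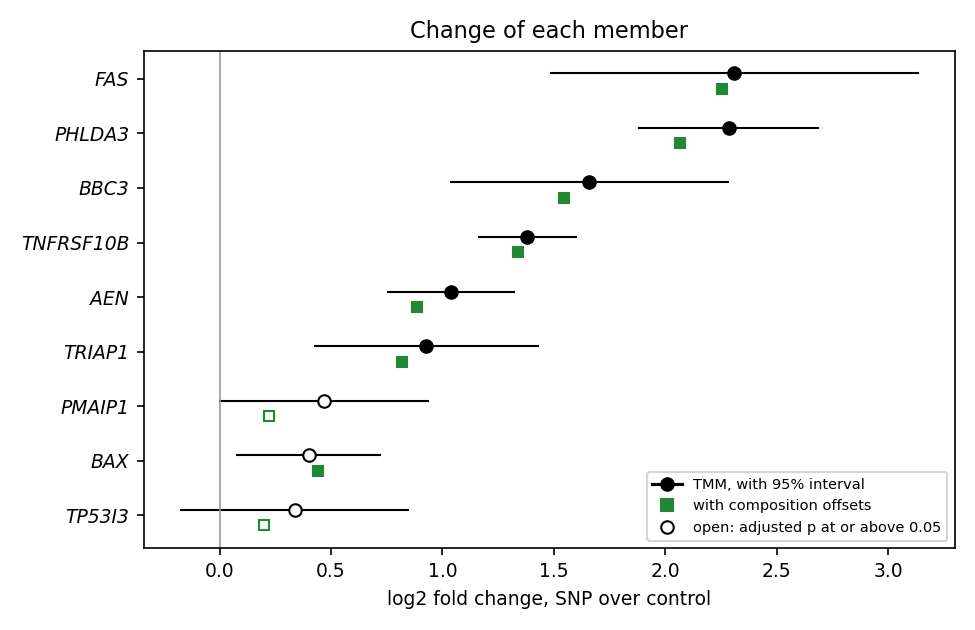
log2 fold change of SNP over control for each member, with 95% intervals (black, TMM scaling) and with offsets for transcript length and base composition (green squares); open symbols have an adjusted p of at least 0.05. FAS and PHLDA3 lie above 2 and PMAIP1, BAX and TP53I3 below 0.5; BAX is filled with the offsets (0.44) and open without (0.40).

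Levels of different genes were compared per transcript length, in TPM as deposited. In control libraries TNFRSF10B had the highest level (70.6 ± 0.209 TPM), followed by BAX (48.0 ± 0.0977 TPM) and AEN (39.6 ± 7.84 TPM). TRIAP1, PMAIP1, PHLDA3 and TP53I3 followed at 25.3, 20.5, 17.0 and 16.5 TPM, and each neighbour in that run overlapped the next. BBC3 (7.22 ± 2.66 TPM) and FAS (1.61 ± 0.592 TPM) had the lowest levels.

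In SNP libraries TNFRSF10B again had the highest level, at 200.2 ± 13.6 TPM. PHLDA3 moved from the sixth to the second place, at 89.9 ± 24.1 TPM, and its values overlapped those of AEN (88.3 ± 14.9 TPM). BAX moved from the second to the fourth place (69.0 ± 9.21 TPM). BBC3 (25.3 ± 5.55 TPM) overlapped TP53I3 (22.6 ± 1.21 TPM), which it had lain below in control. FAS kept the lowest level, 8.90 ± 0.0415 TPM. The 9 genes together held 235 and 258 TPM in the control libraries and 542 and 631 TPM in the SNP libraries.

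**Figure D3:**
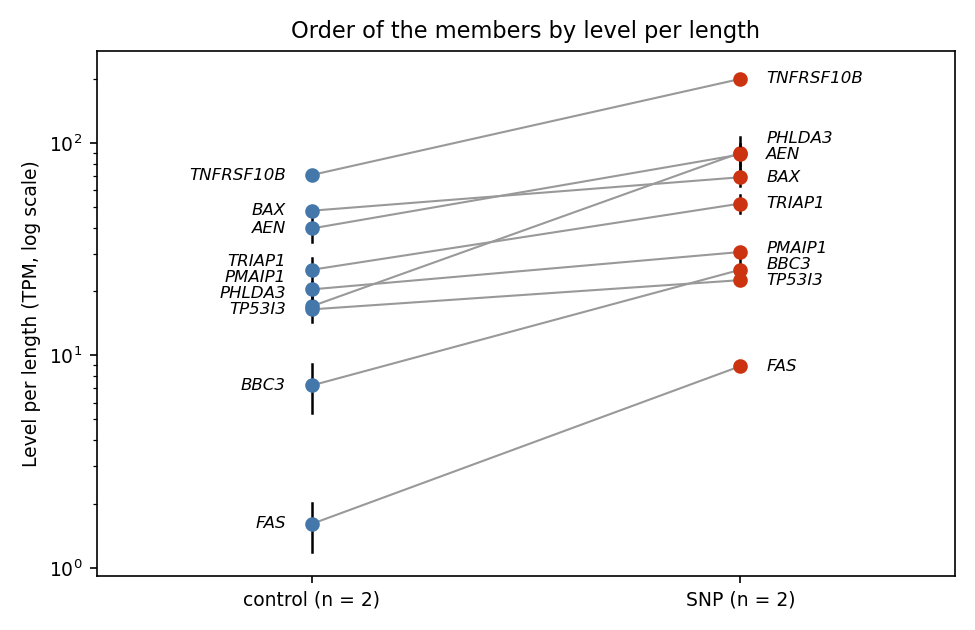
Level per transcript length (TPM, log axis) of each member in control and SNP libraries; points are group means, black bars span the 2 libraries and grey lines join the same gene. PHLDA3 crosses 4 other genes on its way from 17.0 to 89.9 TPM, and FAS stays lowest at 1.61 and 8.90 TPM.

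The members lie on 8 chromosomes (GRCh38 positions from GENCODE 29), and only BAX (19, 48954815 to 48961798, plus strand) and BBC3 (19, 47220822 to 47232766, minus strand) share one. FAS (10, 88990582 to 89015785, plus strand) shares 380 of its 4253 exonic bases with ACTA2, a smooth muscle actin gene on the other strand. ACTA2 was counted 32 and 39 times without SNP and 64 and 72 times with it, with a log2 fold change of 0.56 and an edgeR adjusted p of 0.157. TNFRSF10B shares 67 of 5158 exonic bases with RHOBTB2, and TP53I3 shares 80 of 2312 with FAM228B, both on the other strand. PHLDA3 shares 598 of 3138 bases with the noncoding AC096677.2, and BBC3 overlaps 2 microRNA genes. All 3 of these partners were listed at 0 in every library. Whether the counting used strand is not given in the sources used here, so reads from these shared stretches cannot be assigned to 1 gene of a pair; BAX, PMAIP1, AEN and TRIAP1 share no exonic base with another gene.

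Base composition moved with the comparison across genes. Over 12563 genes that reached 4 CPM on average (genes do not count as independent replicates), the Spearman correlation between the log2 fold change and the guanine minus cytosine content of the transcripts was 0.550. The members had 1.13 (BAX) to 4.36 (PMAIP1) percentage points more guanine than cytosine, at percentiles 51.3 to 90.8 of all genes tested. Genes within 0.5 points of PMAIP1 had a median log2 fold change of 0.32, near its own 0.47. For TP53I3 that median was 0.20, against its own 0.34. Around FAS, TNFRSF10B, BBC3 and BAX the medians were 0.014, -0.0053, 0.081 and -0.019, against log2 fold changes of 2.31, 1.38, 1.66 and 0.40. Around AEN, PHLDA3 and TRIAP1 they were 0.115, 0.201 and 0.241, against 1.04, 2.28 and 0.93.

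With offsets for transcript length, GC and guanine minus cytosine content, 7 members were called higher and 0 lower, where 8.18% of all genes tested were called higher and 10.6% lower. FAS, PHLDA3, BBC3, TNFRSF10B, AEN and TRIAP1 kept log2 fold changes of 2.25, 2.07, 1.55, 1.34, 0.88 and 0.82, with edgeR adjusted p-values between 1.86e-06 and 0.0193. PMAIP1 and TP53I3 were at 0.22 and 0.20, with edgeR adjusted p-values of 0.484 and 0.573. The part of base composition in the values of the members was not tested further.

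**Figure D4:**
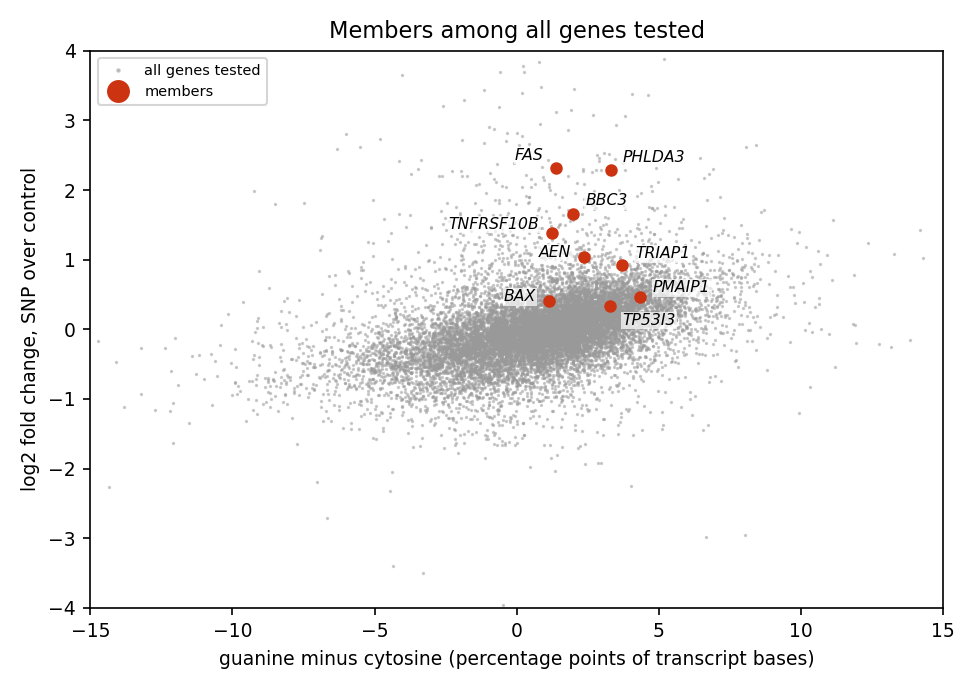
log2 fold change of SNP over control against guanine minus cytosine content of the transcripts for all genes tested with a base composition (grey) and the 9 members (red); 43 of 14724 genes lie outside the axes. By log2 fold change FAS, PHLDA3, BBC3, TNFRSF10B, AEN and TRIAP1 lie at percentiles 95.8 (TRIAP1) to 99.5 (FAS) of all genes tested. PMAIP1, BAX and TP53I3 lie at 85.4, 81.9 and 78.1.

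The regulators of p53 and its relatives were compared in the same fit. MDM2, the ubiquitin ligase that degrades p53, rose from 256 ± 5.12 to 732 ± 49.5 CPM, by 1.51 on the log2 scale (edgeR adjusted p 6.95e-10). PPM1D, the phosphatase WIP1 that dampens p53 signalling, rose by 0.81 (edgeR adjusted p 2.25e-05). MDM4, the MDM2 relative, had a log2 fold change of 0.027 and an edgeR adjusted p of 0.854. Of the p53 relatives, TP63 was listed at 0 in every library, and TP73 was lower at -0.46 (edgeR adjusted p 0.0470), a call lost with DESeq2, with the offsets, with total counts in place of TMM, without the filter and in 3 of the 4 fits without 1 library, where the edgeR adjusted p reached 0.227.

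Most of the other p53 targets rose as well. Of 23 listed, 20 were tested, 17 rose and 0 fell, with a median log2 fold change of 1.03. With the composition offsets 18 rose and 0 fell. Over all genes tested 13.6% were called higher and 12.6% lower, and with the offsets 8.18% and 10.6%. The largest rises were in TNFRSF10A, GDF15 and GADD45A. TNFRSF10A encodes DR4, the other TRAIL receptor that carries a death domain, and had 2 and 3 counts in control against 41 and 58 in SNP libraries. The ratio of the summed counts per library depth, 5 against 99, was 15.3, with an exact 95% interval of 6.35 to 48.2 that covers counting error only. It passed in edgeR (adjusted p 2.78e-05), and DESeq2 gave it no adjusted p.

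GDF15, a secreted stress cytokine, and GADD45A, a damage-response protein, rose by 2.68 and 2.61 (edgeR adjusted p 1.89e-06 and 2.67e-07). CDKN1A, which encodes the cell cycle inhibitor p21 and was singled out after its values were seen, rose from 20.2 ± 1.15 to 95.9 ± 24.9 CPM (log2 fold change 2.25, edgeR adjusted p 1.12e-08). PLK2, SESN2 and ACER2, at 0.43, 0.51 and 0.51, missed the threshold. The TRAIL decoy receptors TNFRSF10C and TNFRSF10D, with at most 3 counts in any library, and SAT1 were too weakly counted to test.

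The BCL2 family beyond BAX, BBC3 and PMAIP1 did not move in 1 direction. Of 13 listed genes 10 were tested, 2 rose and 2 fell, and the median log2 fold change was 0.028. For this list and those that follow, the shares over all genes tested were 13.6% called higher and 12.6% called lower. The survival genes BCL2L2 and MCL1 rose by 0.95 and 0.45 (edgeR adjusted p 4.02e-05 and 0.0015). The BH3-only genes BAD and, named after its value was seen, BCL2L11 fell by 1.00 and 0.40 on the log2 scale (edgeR adjusted p 0.0293 and 0.0173). With the composition offsets BCL2L2 alone of these 4 passed, at 0.53 (edgeR adjusted p 0.0076), and MCL1 was at 0.10. Neither BAD nor BCL2L11 passed with DESeq2. BAD was also lost without control b and without SNP a, and BCL2L11 without either control library, where their edgeR adjusted p-values reached 0.223 and 0.124. BAK1, the pore-forming relative of BAX, was at 9.46 ± 0.940 CPM in control against 9.90 ± 0.245 CPM in SNP libraries.

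The listed ligands of the death receptors had at most 1 count in any library. FASLG, the ligand of FAS, was listed at 0 in every library, and TNFSF10, which encodes TRAIL, had 1 count in SNP a and 0 elsewhere. CASP8, the initiator caspase of this route and a gene often silenced in neuroblastoma, had 6 and 10 counts without SNP and 1 and 5 with it and was not tested. Other partners had more counts, such as CFLAR with 328 to 606 per library and FADD, the adaptor of FAS, with 57 to 100. Of 10 listed genes 6 were tested, 2 rose and 0 fell, and the median log2 fold change was 0.087. RIPK1, a kinase of receptor complexes, and CFLAR, the caspase-8 inhibitor FLIP, rose by 0.55 and 0.35 (edgeR adjusted p 0.0085 and 0.0316). Neither passed with the offsets, at 0.36 and 0.21, or without either control library, and CFLAR also failed with DESeq2, without the filter and without SNP a; their edgeR adjusted p-values reached 0.0665 and 0.211 in those fits. With the offsets the 1 gene of the list called was lower, DAP3, a mitochondrial ribosomal protein also tied to cell death, at -0.34 (edgeR adjusted p 0.0130) against -0.12 without them.

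Downstream of mitochondria, 14 genes were listed and tested, 3 rose and 2 fell, with a median log2 fold change of 0.24 that was -0.028 with the composition offsets. APAF1, which forms the caspase-9 platform, rose by 0.63 (edgeR adjusted p 4.18e-04), which was 0.33 with the offsets (edgeR adjusted p 0.0203). With the offsets APAF1 was the 1 gene called higher, and 4 were called lower. ENDOG, a mitochondrial nuclease, and BIRC5, the inhibitor survivin and a gene of dividing cells, fell by 1.16 and 0.66 (edgeR adjusted p 0.0101 and 4.69e-04), and ENDOG did not pass with DESeq2 (adjusted p 0.0609). CYCS, cytochrome c, named after its values were seen, rose by 0.37. That call was lost with DESeq2, with the offsets, where CYCS was at -0.025, and without control a, control b or SNP a, where its edgeR adjusted p reached 0.300.

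Among the AKT kinases and TRIAP1 partners, 8 of 9 listed genes were tested, 2 rose and 0 fell, where 13.6% of all genes tested were called higher. The median log2 fold change was 0.20, and 0.034 with the offsets. AKT1 and AKT2, the kinases that PHLDA3 restrains, rose by 0.30 each (edgeR adjusted p 0.0461 and 0.0408). Both calls were lost with DESeq2, without the filter and without control a, control b or SNP b, where the edgeR adjusted p-values reached 0.417 and 0.290, and that of AKT1 with the offsets too. The PRELID genes had log2 fold changes from -0.28 (PRELID1) to 0.23 (PRELID3A), and none of the 4 passed. PHLDA1, a relative of PHLDA3, was at 0.36 with an edgeR adjusted p of 0.114, and PHLDA2 had 0 counts without SNP and 3 and 4 with it.

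**Figure D5:**
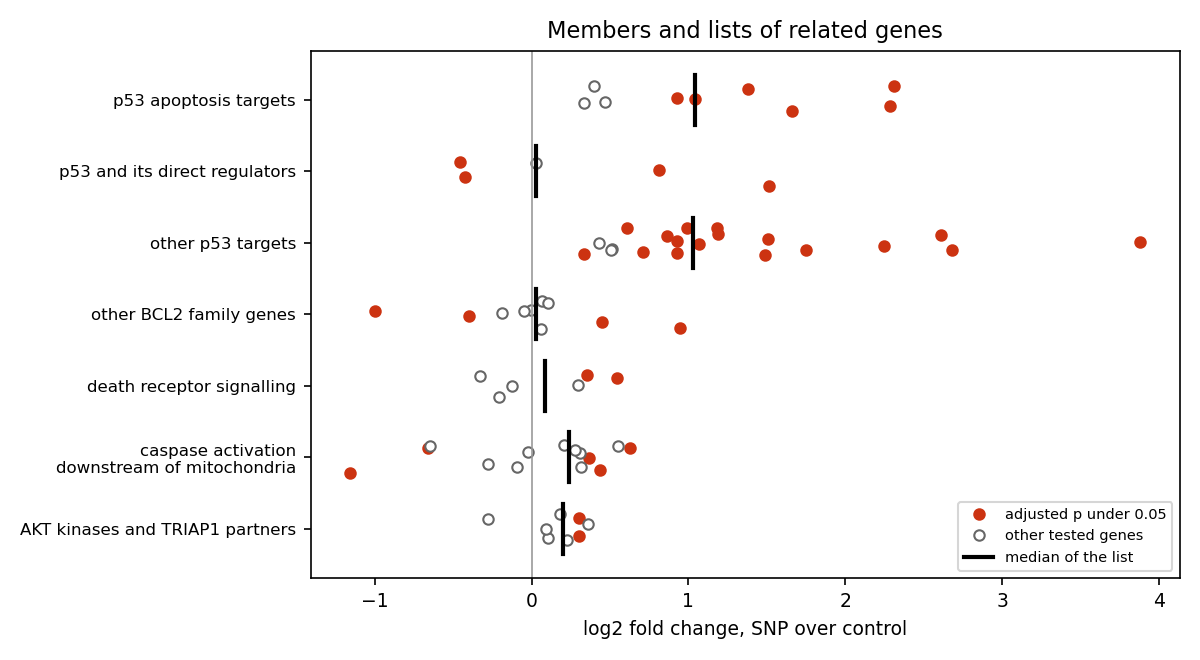
log2 fold change of SNP over control for the members and for 6 lists of related genes; each point is a tested gene, red where the adjusted p is under 0.05, and black bars are list medians. The members (median 1.04) and the other p53 targets (median 1.03) lie to the right of 0 without exception, whereas the other BCL2 family genes (median 0.028) lie on both sides; the point farthest right, TNFRSF10A, rests on 5 control counts.

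For the members with the highest and the lowest log2 fold change, the genes with the most similar profile were sought among the 12118 other genes whose mean reached 5 CPM, by the distance between centred log2 CPM values over the 4 libraries. Nearest to FAS were AL121845.3, ZDHHC11 and SEMA4A, at distances of 0.190, 0.250 and 0.261, with log2 fold changes between 1.85 and 2.23. Nearest to TP53I3 were GPN2, RAP1GAP2 and PSD3, at distances of 0.015, 0.018 and 0.019, with log2 fold changes of 0.32, 0.33 and 0.32. With 4 libraries such a likeness is a description.

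The identity of the cells was checked with marker genes. The summed level of 10 adrenergic neuroblastoma markers was 2764 to 2831 CPM in control against 2145 to 2329 CPM in SNP libraries. DBH, which makes noradrenaline, fell from 673 to 259 CPM, and without it the sum was 2109 to 2139 against 1924 to 2031 CPM. Of 9 tested, 2 rose (HAND2 by 0.41 and CHGA by 0.91) and 6 fell, with a median log2 fold change of -0.39; with the offsets 2 rose and 2 fell and the median was 0.0064. TH, which defines catecholamine synthesis, was listed at 0 in every library although DBH had 1750 to 4064 counts, and whether this 0 lies in the cells or in the counting was not tested. The summed level of 10 mesenchymal-type markers was 370 to 373 CPM in control against 332 to 343 CPM in SNP libraries. NOTCH2 (155 ± 8.38 CPM in control) and TWIST1 (147 ± 13.9 CPM) made up most of it. PRRX1, YAP1 and COL1A1 were too weakly counted to test. Of 7 tested, 1 rose and 1 fell, with a median log2 fold change of -0.27. The 1 that rose was FOSL1, with 4 and 6 counts in control against 23 and 29 in SNP libraries. COL1A2 fell, from 32 and 11 counts to 10 and 7. In fits without 1 library its log2 fold change ran from -2.17 to -0.84, and that of FOSL1 from 1.62 to 2.40. With the offsets 1 rose and 2 fell, and the median was -0.12. The summed level of 6 immune markers stayed between 1.60 and 3.11 CPM, with PTPRC and CD3E at 0. The labels mention retinoic acid differentiation. The 7 markers of the retinoic acid response summed to 451 to 512 CPM in control against 382 to 396 CPM in SNP libraries. Most of this was RET, at 454 ± 45.3 CPM in control, and without it the sum was 24.6 to 28.2 CPM in all libraries. CYP26A1 was listed at 0 in every library. Of 5 tested, RET alone was called, lower at -0.32 (edgeR adjusted p 0.0156), and not with the offsets (edgeR adjusted p 0.0626). The part of the lower adrenergic marker level in the rises of the members was not tested, and in these bulk samples fewer cells of a type and less RNA per cell cannot be told apart.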

How the data were processed

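RNA sequencing tables of 2 control and 2 SNP libraries were used. The labels give 75 bp reads and 40 M reads per library; the build is GRCh38 per the submitters' processing notes, and the aligner, counter and annotation are not given in the sources used here. The authors deposited whole-number counts per gene, TPM and RPKM, per the file headers. RPKM was used only to check gene lengths: between 90.3% and 90.5% of counted genes had the exon length of GENCODE 29 within 0.5%, and 57980 of 58243 identifiers were in that release. Counts were tested with edgeR 4.0.16 in R 4.3.3 (filterByExpr with minimum count 10 and total 15, TMM, quasi-likelihood test of SNP against control over 4 libraries without covariate, Benjamini-Hochberg, threshold 0.05). Standard errors came from the F statistic, which takes in the estimated spread between libraries as well as the counts. Offsets were per-library lowess curves (span 0.5, 3 rounds). DESeq2 1.42.0 and limma 3.58.1 served as alternatives. Scripts were tested on simulated counts.

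The members and lists were chosen with earlier results of these data known. Named were all members, the genes of the list of p53 and its direct regulators, the 3 largest changes among the genes called in each other list, untested genes, and the 3 nearest profiles of the extreme members; other names were chosen after values were seen. A further 3 genes of the lists are counted but not reported here. The letters a and b come from the titles; across genes, the difference between a and b in control correlated with that in SNP at 0.047.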

Additional observations from a re-analysis of the deposited data

How the results depend on the processing

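Over 13 alternatives (other scaling, filters, DESeq2, limma-voom, the replicate block, composition offsets and each library left out), every member kept its direction and between 5 and 7 members were called, always higher; with a mean of at least 50 counts FAS was not tested and 5 of 8 passed. BAX crossed the threshold with the replicate block (log2 fold change 0.40, edgeR adjusted p 0.0497), with the offsets (0.44) and with the offsets and the replicate block (0.44). It did not cross with other scaling, other filters, DESeq2 (DESeq2 Wald adjusted p 0.187) or limma-voom. With each library left out BAX ranged from 0.30 to 0.50 and TRIAP1 from 0.75 to 1.11. The replicate block gave 4487 genes called in place of 3861 and 7 members; since the letters are not shown to pair the libraries, it is given here only. DESeq2 called 2415 genes, and fits without 1 library 2447 to 4144. Leaving out libraries moved the counts of called genes to 2 to 4 for p53 and its regulators, 2 to 4 for the BCL2 family, 0 to 2 for death receptor signalling, 3 to 7 for the caspase list and 0 to 2 for the AKT list. With DESeq2 those of the BCL2, death receptor, caspase and AKT lists were 2, 1, 2 and 0. With the offsets, with or without the replicate block, those of the p53 regulator, BCL2, death receptor and AKT lists were 2, 1, 1 and 1, and the 1 for death receptors was lower where both calls without the offsets were higher. Total counts without TMM gave 1 for the AKT list, and no filter gave 1 for death receptors and 0 for the AKT list. Depth limits FAS, BBC3, TP53I3, TRIAP1 and PMAIP1 most, with 6 to 59 counts per control library.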
